A study of Homo sapiens with 6 samples.

Results

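The 36 genes described here make up the protein folding machinery of the endoplasmic reticulum and the sensors that adjust it. They comprise lumenal chaperones and their cofactors, enzymes that form disulfide bonds, sensors of the unfolded protein response, the machinery that degrades misfolded proteins, and the translocon through which new proteins enter. They were found on the arrays by the gene symbol annotated to each probe. Of the 36 genes, 35 were on the array, by 41 of its 48701 probes, among 18774 genes in all. A probe counted as detected on an array when its detection p-value, which tells how often a negative control bead is as bright, was under 0.01. A gene was tested when 1 of its probes was detected on both arrays of at least 1 group, which held for 27 of these genes and for 8018 genes in all.

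RNA was measured on Illumina Human-6 bead arrays in HEK293T cells, a line of human embryonic kidney origin that carries the SV40 large T antigen. The groups were cells that received 2 µg of plasmid with the cloned cluster of miR-23a, miR-27a and miR-24-2, cells that received 4 µg of it, and untransfected control cells. Each group had 2 arrays, described in the labels as biological duplicates, so 2 values stand behind every mean and the p-values rest on few arrays. No group received an empty plasmid, so uptake of DNA and the microRNAs cannot be told apart, and neither can position on the chip and group.

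Proteins that enter the endoplasmic reticulum fold there with the help of chaperones, among them the Hsp70 family member BiP, which HSPA5 encodes. When unfolded proteins accumulate, 3 sensors in its membrane respond. IRE1, encoded by ERN1, splices the XBP1 messenger so that an active transcription factor is made. ATF6 is cut in the Golgi and its released part enters the nucleus. PERK, encoded by EIF2AK3, phosphorylates the initiation factor eIF2α, which lowers translation in general and raises that of ATF4. The arrays measured messenger levels only, and none of their values reads XBP1 splicing, ATF6 cleavage or eIF2α phosphorylation.

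The microRNAs of the cloned cluster are shown because they are what the plasmid was made to carry. Capitals mark the seed, bases 2 to 8, with which a microRNA pairs to its targets. The mature sequences are those of RefSeq on GRCh38.p14, and all lie on the minus strand, at chr19:13836595-13836615 for miR-23a-3p, chr19:13836447-13836467 for miR-27a-3p and chr19:13836289-13836310 for miR-24-3p.
hsa-miR-23a-3p: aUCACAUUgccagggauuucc
hsa-miR-27a-3p: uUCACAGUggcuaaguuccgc
hsa-miR-24-3p: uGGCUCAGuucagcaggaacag
The seeds all differ from one another. The array had no annotated probe for these microRNAs, so their own levels were not read here.

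Many genes of this group share a short promoter motif, the ER stress response element (ERSE), which ATF6 binds together with the factor NF-Y. It reads CCAAT, then 9 bases of any kind, then CCACG. A related motif, ERSE-II, reads ATTGG, then 1 base of any kind, then CCACG, and the element named UPRE was searched as TGACGTGG. Windows of 250 bases before to 50 bases after the start, from RefSeq on GRCh38.p14, were searched on both strands and were available for 33 of the 36 genes. ERSE occurred in 8 of these 33 genes (24.2%), against 25 of 27305 genes with a window (0.0916%). These 8 were HSPA5, HSP90B1, CALR, CANX, CRELD2, PDIA6, ERO1B and XBP1. ERSE-II occurred in SDF2L1, HERPUD1 and HYOU1 (9.09% of the 33 genes, against 0.0696% of all), and UPRE in HYOU1, SSR3 and SSR4 (9.09%, against 0.927%). A UPRE match in HYOU1 overlapped an ERSE-II match. ERSE was defined on promoters of such genes, so its presence here is a description and not a finding.

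Stretches of the promoters are printed for the genes with ERSE or ERSE-II that changed in the comparisons, and for HSP90B1, which has a pair of matches and did not pass the test. Capitals mark the fixed letters of each match, read 5′ to 3′ along the gene's own strand, so an element in the reverse orientation shows CGTGG before CCAAT or ATTGG. The stretches lie at chr9:125241371-125241429 (minus strand) for HSPA5, chr22:21642094-21642144 (plus) for SDF2L1, chr22:49918534-49918592 (plus) for CRELD2, chr2:10812833-10812891 (minus) for PDIA6, chr22:28800583-28800641 (minus) for XBP1, chr16:56932005-56932055 (plus) for HERPUD1 and chr12:103930196-103930359 (plus) for HSP90B1.
HSPA5: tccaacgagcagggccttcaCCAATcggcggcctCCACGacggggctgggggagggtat
SDF2L1: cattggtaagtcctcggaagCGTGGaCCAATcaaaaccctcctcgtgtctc
CRELD2: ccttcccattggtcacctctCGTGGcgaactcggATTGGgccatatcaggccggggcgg
PDIA6: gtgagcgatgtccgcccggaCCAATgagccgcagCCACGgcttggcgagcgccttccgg
XBP1: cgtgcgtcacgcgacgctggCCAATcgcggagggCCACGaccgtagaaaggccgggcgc
HERPUD1: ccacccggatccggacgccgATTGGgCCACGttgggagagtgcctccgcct
HSP90B1: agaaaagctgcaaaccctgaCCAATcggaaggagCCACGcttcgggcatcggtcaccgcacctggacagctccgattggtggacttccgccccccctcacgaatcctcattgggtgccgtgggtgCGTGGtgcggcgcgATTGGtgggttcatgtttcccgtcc

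**Figure D1:**
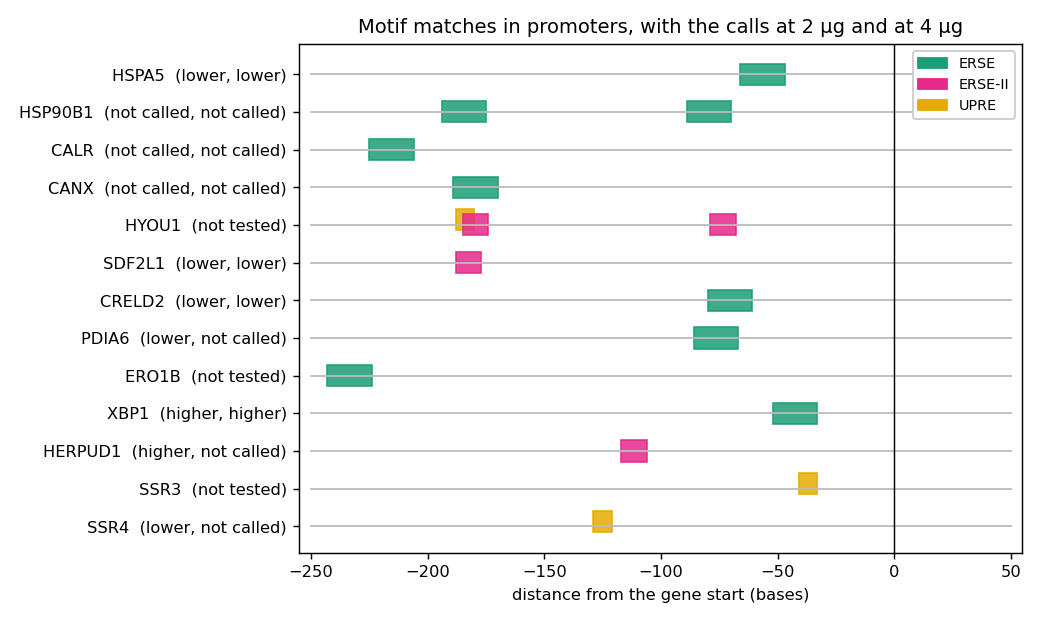
Positions of ERSE, ERSE-II and UPRE matches in promoter windows of the endoplasmic reticulum genes that held one. The horizontal axis is the distance from the transcription start in bases, each line is the window of 1 gene, and the marks show where a match lies and which motif it is, with the calls at 2 µg and 4 µg beside each name; the matches of HSPA5, CRELD2, PDIA6 and XBP1 lie close before the start, and CANX is drawn for its most downstream window.

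After 2 µg of the plasmid, 11 of the 27 tested genes changed against untransfected control cells, 8 lower and 3 higher. These were limma calls at a Benjamini-Hochberg adjusted p under 0.05 over all 8018 genes. By the same rule 41.6% of all tested genes were called, and 40.7% of the 27, so their share of calls was near that of all genes. The split by direction was 29.6% lower and 11.1% higher among the 27, against 19.8% lower and 21.8% higher among all genes. Their median log2 difference was -0.22, within a range of -0.97 to 0.78, and the median over all genes was 0.03. Both 2 µg arrays lay below both control arrays for 15 of the 27 genes (55.6%, against 33.4% of all genes), and above both for 5 (18.5%, against 36.1%). The arrays read RNA from whole cultures, so less RNA in every cell and fewer cells with the RNA cannot be told apart.

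After 4 µg, 7 of the 27 genes changed against the same control arrays, 6 lower and 1 higher. The share called was 25.9%, against 22.0% of all tested genes. It was 22.2% lower and 3.7% higher among the 27, against 10.2% lower and 11.8% higher among all genes. Their median log2 difference was -0.23, within a range of -0.99 to 0.47, against 0.03 over all genes. Both 4 µg arrays lay below both control arrays for 16 genes (59.3%, against 30.2% of all genes) and above both for 4 (14.8%, against 35.6%). The count and its split depended on scaling. With median scaling over all probes 4 genes were called, 2 lower and 2 higher, and the median of all genes moved by 0.16 to 0.18 while that of the 27 was -0.10. The distance of the 27 from all genes was -0.25 in the main scaling and -0.28 in that one. The authors' deposited processed values likewise gave 4 calls, 2 lower and 2 higher. The count was 2 without the first 4 µg array, 2 without the second, 1 without the first control array and 3 without the second, where the all-gene share was 9.13%, 8.68%, 9.77% and 11.7%. The 2 doses were set against the same control arrays and are not independent of each other.

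**Figure D2:**
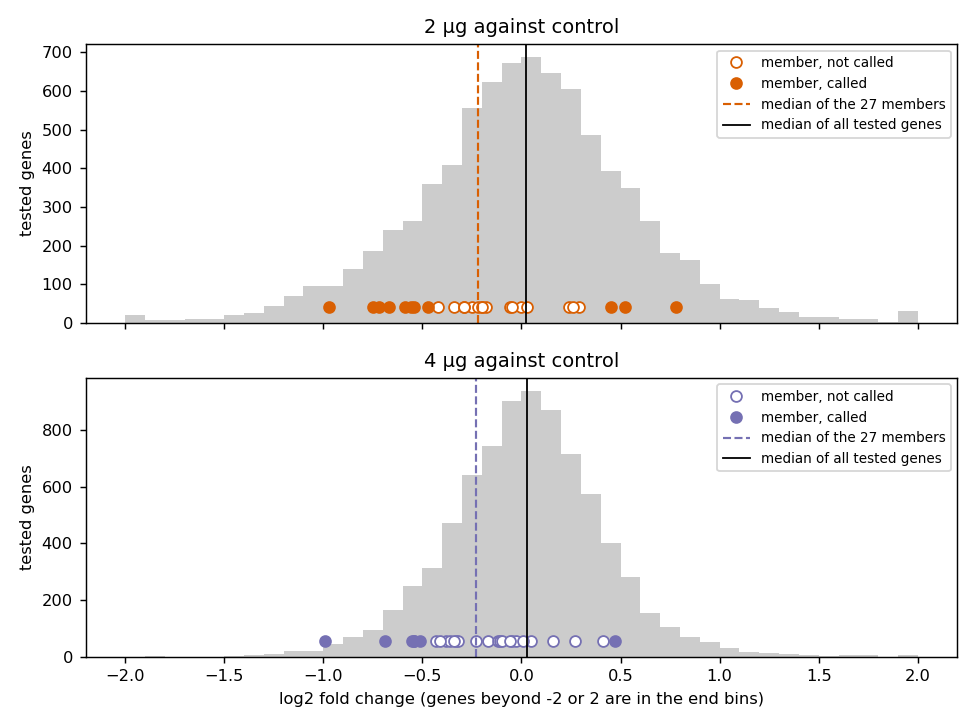
Distribution of log2 differences for the 27 tested endoplasmic reticulum genes and for all 8018 tested genes, at 2 µg and at 4 µg against control. The horizontal axis is the log2 difference; circles are the 27 genes (filled where called), grey bars count all genes, and the medians of the 27 genes, -0.22 and -0.23, lie left of the 0.03 of all genes at both doses.

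Among the chaperones and cofactors, 9 genes were tested, of which 3 fell and 1 rose at 2 µg, and 3 fell at 4 µg. The share called was 44.4% at 2 µg and 33.3% at 4 µg, against 41.6% and 22.0% of all tested genes. HSPA5 encodes BiP, the main lumenal Hsp70. On the log2 scale of normalized intensity HSPA5 read 9.51 and 9.48 at 2 µg, 9.61 and 9.53 at 4 µg, and 10.24 and 9.93 in control cells. All 4 transfected arrays lay below both control arrays. HSPA5 fell at 2 µg by 0.59 (SE 0.14, limma adjusted p = 0.00693) and at 4 µg by 0.51 (SE 0.14, adjusted p = 0.0246). The 2 µg call was lost without the first control array (adjusted p = 0.0591). The 4 µg call was lost without the first control array (0.153), without the first (0.0942) or the second (0.143) 4 µg array, with the authors' values (0.0776), with median scaling over all probes (-0.30, 0.224) and with no detection filter (0.052).

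SDF2L1, a lumenal cofactor found in complexes with BiP and its J-domain partners, had the largest fall of the 27 genes at both doses. SDF2L1 read 9.94 and 9.82 at 2 µg, 9.67 and 10.06 at 4 µg, and 10.84 and 10.87 in control cells. No transfected array reached the level of the control arrays. SDF2L1 fell by 0.97 at 2 µg (SE 0.15, limma adjusted p = 0.00062), a 1.96-fold lower intensity. It fell by 0.99 at 4 µg (SE 0.15, adjusted p = 0.00183), 1.99-fold lower. Both calls held under all 17 alternatives run, some of which left the difference itself unchanged.

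CRELD2 encodes a lumenal protein with disulfide isomerase activity whose gene is known to respond to ER stress. CRELD2 read 9.78 and 9.64 at 2 µg, 9.61 and 9.83 at 4 µg, and 10.24 and 10.3 in control cells, again with no overlap. CRELD2 fell by 0.56 at 2 µg (SE 0.13, limma adjusted p = 0.00683) and by 0.55 at 4 µg (SE 0.13, adjusted p = 0.0154). The 4 µg call was lost without the first 4 µg array (0.14), the first control array (0.0621) or the second control array (0.0773), with the authors' values (0.0522) and with median scaling over all probes (-0.35, 0.159).

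DNAJB9, also called ERdj4, is a J-domain partner of BiP that restrains IRE1, and it went the other way at 2 µg. DNAJB9 read 9.98 and 10.03 at 2 µg, 9.61 and 9.89 at 4 µg, and 9.58 and 9.38 in control cells. The 2 µg arrays were the highest, and the lower 4 µg array lay close to the higher control array. DNAJB9 rose by 0.52 at 2 µg (SE 0.14, limma adjusted p = 0.0138), and at 4 µg its difference was 0.27 (SE 0.14, adjusted p = 0.201). The 2 µg call was lost without the second 2 µg array (0.0554) or the second control array (0.0959).

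The other tested chaperones did not pass at either dose. HSP90B1, the lumenal Hsp90 known as GRP94, differed by -0.06 at 2 µg (adjusted p = 0.749) and -0.17 at 4 µg (0.36), and its promoter holds a pair of ERSE matches. HSP90B1 was called lower at 4 µg with median scaling over the tested genes. CALR, a lectin chaperone of glycoproteins, differed by 0.24 (0.215) and -0.23 (0.297). CANX, its membrane counterpart, differed by -0.34 (0.0508) and -0.38 (0.0529), just outside the threshold. CANX passed at both doses with quantile normalization without background correction, with an offset of 50, and among probes detected on all 6 arrays. It also passed at 2 µg with the mean of kept probes, and at 4 µg with only the groups compared. MANF, a secreted and lumenal stress protein, differed by 0.00 at 2 µg, with a 95% interval of -0.28 to 0.28, and by -0.05 at 4 µg (0.814). DNAJB11, a BiP partner also called ERdj3, differed by 0.29 (0.0802) and 0.05 (0.816). It passed at 2 µg with quantile normalization without background correction. HYOU1, which exchanges the nucleotide of BiP, and DNAJC3, a BiP partner that inhibits PERK, were not well above background in both arrays of any group and were not tested. At its level near background, HYOU1 was called lower at 2 µg with no detection filter and with a detection p under 0.05.

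**Figure D3:**
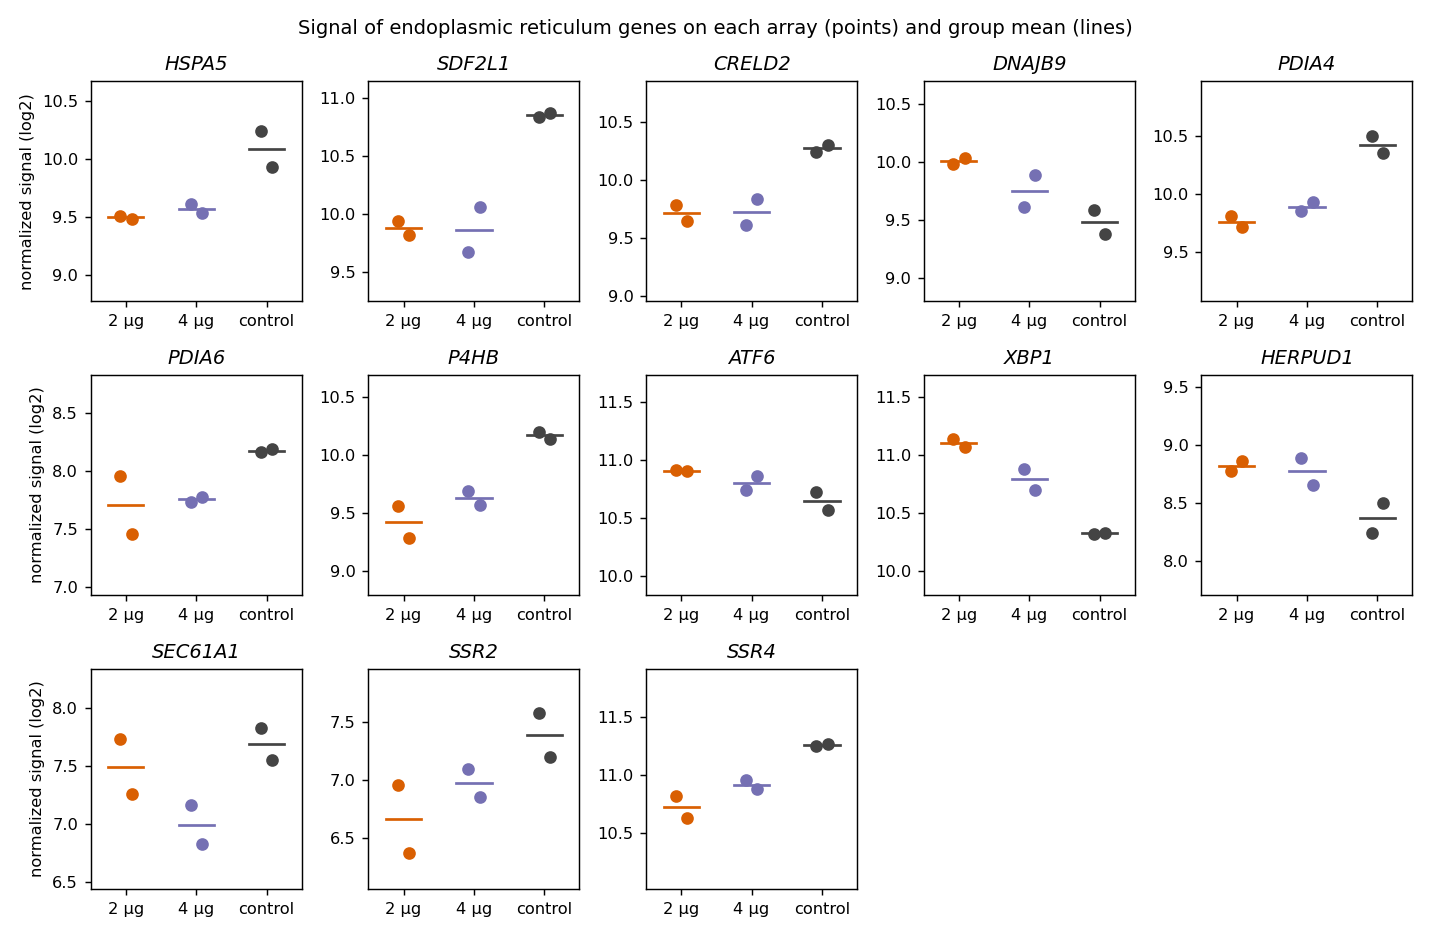
Log2 normalized intensity of 13 endoplasmic reticulum genes on each of the 6 arrays. Within each panel the 2 µg, 4 µg and control arrays run from left to right, each point is 1 array and each line the mean of 2 arrays; SDF2L1 is lower and XBP1 higher on all 4 transfected arrays than on both control arrays.

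Of the disulfide enzymes 4 were tested, and 3 fell at 2 µg and 2 at 4 µg. The share called, all lower, was 75% at 2 µg and 50% at 4 µg, against 41.6% and 22.0% of all tested genes. Called lower were 19.8% and 10.2% of all tested genes. All 4 had both transfected arrays below both control arrays at each dose, as had 33.4% of all genes at 2 µg and 30.2% at 4 µg. P4HB encodes protein disulfide isomerase itself. P4HB read 9.56 and 9.28 at 2 µg, 9.69 and 9.57 at 4 µg, and 10.2 and 10.14 in control cells. P4HB fell by 0.75 at 2 µg (SE 0.14, limma adjusted p = 0.00172) and by 0.54 at 4 µg (SE 0.14, adjusted p = 0.02). The 4 µg call was lost without either 4 µg array (0.0726 and 0.132), without either control array (0.0968 and 0.0673), with the authors' values (0.0562) and with median scaling over all probes (-0.35, 0.156).

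PDIA4, also called ERp72, is another member of the isomerase family. PDIA4 read 9.81 and 9.71 at 2 µg, 9.85 and 9.93 at 4 µg, and 10.5 and 10.35 in control cells. The transfected arrays lay within a narrow span, all below the control arrays. PDIA4 fell by 0.67 at 2 µg (SE 0.13, limma adjusted p = 0.00221) and by 0.54 at 4 µg (SE 0.13, adjusted p = 0.015). The 4 µg call was lost without the first (0.108) or second (0.071) 4 µg array or the first control array (0.0898), and with median scaling over all probes (-0.35, 0.152).

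PDIA6, an isomerase also known to act on IRE1, read 7.96 and 7.46 at 2 µg, 7.74 and 7.78 at 4 µg, and 8.17 and 8.19 in control cells. The 2 µg arrays lay further apart than those of the other groups. PDIA6 fell by 0.47 at 2 µg (SE 0.16, limma adjusted p = 0.0396), and at 4 µg its difference was -0.43 (SE 0.16, adjusted p = 0.0871). The 2 µg difference was -0.73 without the first 2 µg array and -0.22 without the second. The 2 µg call was lost with the authors' values (0.0862), no detection filter (0.0954) and only the groups compared (0.0542). Leaving out a 4 µg array gave that same fit, because no 4 µg value enters this difference. The call was also lost without the second 2 µg array or either control array. With only the groups compared the 4 µg difference passed (limma adjusted p = 0.0277). ERO1A, the oxidase that reoxidizes these isomerases, differed by -0.25 at 2 µg (adjusted p = 0.232) and -0.33 at 4 µg (0.154). PDIA3, the isomerase of glycoproteins, and ERO1B, the other oxidase, were not well above background.

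XBP1, the messenger that IRE1 splices, rose at both doses. XBP1 read 11.14 and 11.07 at 2 µg, 10.88 and 10.7 at 4 µg, and 10.32 and 10.33 in control cells. The 2 µg arrays were the highest, the 4 µg arrays lay between, and no groups overlapped. XBP1 rose by 0.78 at 2 µg (SE 0.13, limma adjusted p = 0.000875) and by 0.47 at 4 µg (SE 0.13, adjusted p = 0.0251). The 2 µg call held under all 17 alternatives, and the 4 µg call was lost without the first (0.198) or second (0.0699) 4 µg array or the first (0.0962) or second (0.0891) control array.

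Of the sensors, ATF6 was tested and ERN1 was not. ATF6 read 10.91 and 10.9 at 2 µg, 10.74 and 10.86 at 4 µg, and 10.72 and 10.57 in control cells. All transfected arrays lay above both control arrays, but the differences of 0.26 at 2 µg (limma adjusted p = 0.128, 95% interval -0.02 to 0.54) and 0.16 at 4 µg (adjusted p = 0.404) did not pass. ERN1 read 5.41 and 5.32 at 2 µg, 5.55 and 5.43 at 4 µg, and 5.42 and 5.52 in control cells. It was not well above background on any of the 6 arrays, so no difference is given for it.

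In the degradation machinery 7 genes were tested, 1 rose at 2 µg and none changed at 4 µg. The share called was 14.3% at 2 µg and 0% at 4 µg, against 41.6% and 22.0% of all tested genes. HERPUD1 organizes the ubiquitin ligase complex that removes misfolded proteins from the endoplasmic reticulum. HERPUD1 read 8.78 and 8.86 at 2 µg, 8.89 and 8.66 at 4 µg, and 8.24 and 8.5 in control cells, with no overlap. HERPUD1 rose by 0.45 at 2 µg (SE 0.14, limma adjusted p = 0.0288), and its difference at 4 µg was 0.41 (SE 0.14, adjusted p = 0.0643). The 2 µg call was lost without the first (0.0565) or second (0.102) 2 µg array or the first control array (0.181), and with no detection filter (0.0573). The 4 µg difference passed with quantile normalization without background correction (0.0483), the authors' values (0.0346) and median scaling over all probes (0.0134). With an offset of 50 it also passed, narrowly, at a limma adjusted p that rounds to 0.05.

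The remaining degradation genes did not pass the test. EDEM1, EDEM2 and EDEM3, which mark glycoproteins for removal by trimming their mannose, differed by -0.20, -0.22 and -0.18 at 2 µg and by -0.32, -0.03 and -0.12 at 4 µg. SYVN1, the ubiquitin ligase also called HRD1, differed by -0.29 at 2 µg and 0.01 at 4 µg. DERL1 and DERL2, membrane proteins of the exit route, differed by 0.03 and -0.05 at 2 µg and by -0.11 and -0.10 at 4 µg. The 95% interval of EDEM1 at 4 µg was -0.59 to -0.05 (adjusted p = 0.0864), and EDEM1 passed there with quantile normalization without background correction. The interval of SYVN1 at 2 µg was -0.66 to 0.08. SEL1L, the partner of SYVN1, and DERL3 were not well above background.

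**Figure D4:**
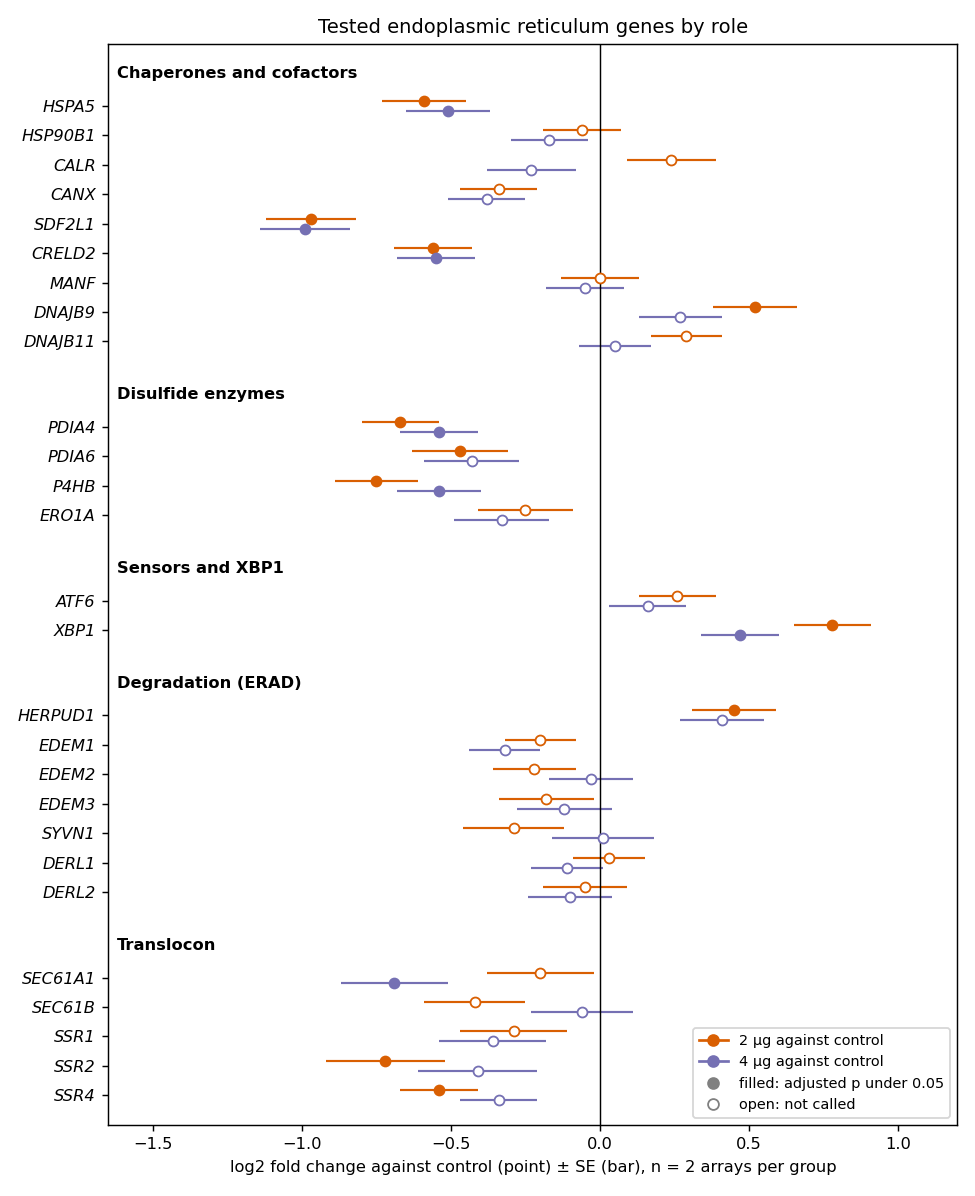
Log2 differences of the 27 tested endoplasmic reticulum genes at 2 µg and 4 µg against control, grouped by role. Points are limma estimates from 2 arrays a group and bars 1 SE on either side, filled where the adjusted p was under 0.05; the points of the disulfide enzymes lie left of 0 at both doses and that of XBP1 lies right of it.

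Of the translocon and its associated complex 5 genes were tested, of which 2 fell at 2 µg and 1 at 4 µg. The share called, 40% at 2 µg and 20% at 4 µg, was near the 41.6% and 22.0% of all tested genes. All 5 differences were below 0 at both doses, which share the control arrays. Of all genes 48.1% were below 0 at 2 µg and 46.8% at 4 µg. SSR4, a subunit of the translocon-associated protein complex, read 10.82 and 10.63 at 2 µg, 10.96 and 10.88 at 4 µg, and 11.25 and 11.27 in control cells. SSR4 fell by 0.54 at 2 µg (SE 0.13, limma adjusted p = 0.00762), a call that held under all 17 alternatives, and its difference at 4 µg was -0.34 (SE 0.13, adjusted p = 0.0828). With quantile normalization without background correction the 4 µg difference passed (limma adjusted p = 0.0286).

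SSR2, another subunit, read 6.96 and 6.37 at 2 µg, 7.1 and 6.86 at 4 µg, and 7.58 and 7.2 in control cells. It was detected on 1 of the 2 arrays at 2 µg. SSR2 fell by 0.72 there (SE 0.20, limma adjusted p = 0.0153), and at 4 µg its difference was -0.41 (SE 0.20, adjusted p = 0.166). A further probe for the same gene gave 0.27 and 0.05, the opposite sign. With the mean of the kept probes the 2 µg difference was -0.23 (adjusted p = 0.295), and without the first 2 µg array it was -1.02. The call was also lost without the second 2 µg array (-0.43, 0.116), without the first control array (0.131) and with no detection filter (0.0592).

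SEC61A1, the channel-forming subunit, passed the test at 4 µg. SEC61A1 read 7.73 and 7.26 at 2 µg, 7.16 and 6.83 at 4 µg, and 7.83 and 7.55 in control cells. It fell by 0.69 at 4 µg (SE 0.18, limma adjusted p = 0.0233), 1.62-fold lower, and at 2 µg its difference was -0.20 (SE 0.18, adjusted p = 0.418). The 4 µg call was lost without the second 4 µg array (0.163), the first (0.149) or second (0.0515) control array, with the authors' values (0.0526) and with no detection filter (0.0781). SEC61B differed by -0.42 at 2 µg (adjusted p = 0.0657) and -0.06 at 4 µg (0.823), and SSR1 by -0.29 (0.219) and -0.36 (0.166). SEC61B passed at 2 µg with an offset of 50 and with a replicate block. SSR3 was not well above background, and SEC61G had no annotated probe on the array.

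Between 4 µg and 2 µg none of the 27 genes passed the limma test, where 8.79% of all tested genes did, and 3 had an unadjusted p under 0.05, against 27.1% of all genes. The all-gene share of calls was 1.16% without the first 4 µg array, 1.47% without the second and 2.92% without the first 2 µg array. Those 3 were CALR, XBP1 and SEC61A1, each lower at 4 µg. CALR read 9.03 and 9.03 at 4 µg and 9.57 and 9.43 at 2 µg, a difference of -0.47 (SE 0.15, adjusted p = 0.0748, 95% interval -0.80 to -0.14). XBP1 differed by -0.31 (adjusted p = 0.148, interval -0.60 to -0.03) and SEC61A1 by -0.50 (adjusted p = 0.115, interval -0.91 to -0.09). For HSPA5 the difference was 0.07, with an interval of -0.24 to 0.38, and for SDF2L1 -0.02, with an interval of -0.35 to 0.31. By direction, 5.23% of all genes were higher and 3.57% lower. Both 4 µg arrays lay above both 2 µg arrays for 6 of the 27 genes (22.2%, against 29.4% of all genes) and below both for 9 (33.3%, against 27.9%). The median over the 27 genes was -0.04. SEC61A1 passed with a replicate block (adjusted p = 0.0455), and CALR with quantile normalization without background correction.

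Calls were also set beside the promoter motifs, where 41.6% of all tested genes were called at 2 µg and 22.0% at 4 µg. Of the 9 tested genes with ERSE or ERSE-II, 4 fell, 2 rose and 3 did not pass at 2 µg, with a median difference of -0.34. Those that fell were HSPA5, SDF2L1, CRELD2 and PDIA6, and those that rose were XBP1 and HERPUD1. Of the 17 tested genes with a window and neither motif, 4 fell, 1 rose and 12 did not pass, with a median of -0.22. At 4 µg the counts were 3 lower, 1 higher and 5 not passed with a motif (median -0.38), and 3 lower, 0 higher and 14 not passed without (median -0.12). Genes with the element therefore stood on both sides of 0.

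Beyond these genes, 152 others that act in or on the endoplasmic reticulum were listed, and 111 were tested. At 2 µg 17 rose (15.3%, against 21.8% of all genes) and 23 fell (20.7%, against 19.8%), with a median of -0.08. At 4 µg 8 rose (7.21%, against 11.8%) and 10 fell (9.01%, against 10.2%), with a median of -0.05. The share called in either direction, 36% at 2 µg and 16.2% at 4 µg, lay below the 41.6% and 22.0% of all genes. With the authors' values the split was 18 higher and 12 lower at 2 µg and 7 higher and 5 lower at 4 µg. At 4 µg it was 10 higher and 2 lower with median scaling over all probes, and 5 higher and 15 lower with median scaling over the tested genes. Without 1 array the 4 µg count was 6 when either 4 µg array was left out, 8 without the first control array and 9 without the second. Between 4 µg and 2 µg, 2 of the 111 were higher and 4 lower, together 5.41%, against 8.79% of all genes. None of the 6 was called without the first or without the second 4 µg array, and 1 was called without the first 2 µg array.

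The sublist named PERK arm and other sensors had the largest share of calls in the wider list. Of 14 tested, 9 rose and 4 fell at 2 µg (median 0.58), and 7 rose and 2 fell at 4 µg (median 0.41). The share called was 92.9% at 2 µg, against 41.6% of all genes, and 64.3% at 4 µg, against 22.0%. The list was chosen with earlier results of these data known, so this share is a description and not a test. The name is that of the list, and whether PERK itself was active was not tested. DDIT3, the transcription factor CHOP, rose by 2.17 at 2 µg (SE 0.14, limma adjusted p = 5.49e-06) and by 1.92 at 4 µg (adjusted p = 4.42e-05). PPP1R15A, the phosphatase subunit GADD34 that reverses eIF2α phosphorylation, rose by 2.55 (adjusted p = 1.16e-06) and 2.17 (1.23e-05). TRIB3, a pseudokinase induced by ATF4 and CHOP, rose by 2.44 and 1.75. ATF4 rose by 0.57 (adjusted p = 0.00429) and 0.49 (0.0189), and EIF2AK3, which encodes PERK, by 0.60 (0.00554) and 0.44 (0.0422). The ATF4 call at 2 µg was lost with median scaling over all probes (0.41, adjusted p = 0.0735). At 4 µg it was lost in 6 of the 17 alternatives, with the highest adjusted p, 0.198, under median scaling of the tested genes, and 0.121, 0.0926 and 0.0987 without the first 4 µg, the second 4 µg and the first control array. The EIF2AK3 call at 4 µg was lost in 9 of the 17, with 0.138, 0.203 and 0.223 without the first 4 µg, the second 4 µg and the second control array. WFS1, a calcium-handling membrane protein, and CREB3L2, a membrane-bound transcription factor, fell by 0.73 each at 2 µg, and both calls held under all alternatives at that dose. At 4 µg WFS1 fell by 0.48 and lost its call in 6 of 17 alternatives, with adjusted p of 0.0895 and 0.156 without the first and second 4 µg array and 0.104 and 0.0731 without the first and second control array. CREB3L2 fell by 0.57 at 4 µg and lost its call in 7 of 17, with 0.0819 and 0.131 without the first and second 4 µg array and 0.0713 and 0.12 without the first and second control array.

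**Figure D5:**
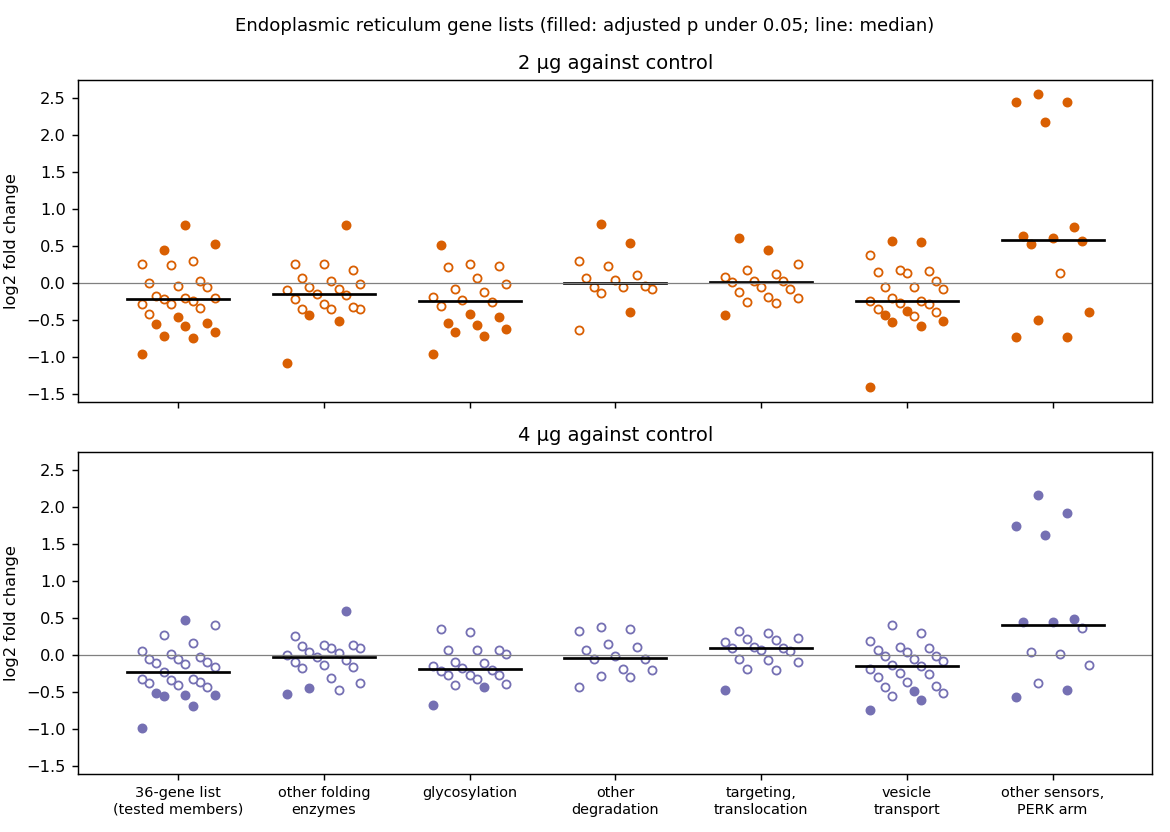
Log2 differences at 2 µg and 4 µg against control for the 27 tested genes (left column) and the 111 tested genes of the wider list, by sublist. Each point is 1 gene, filled where the adjusted p was under 0.05, and each line a median; the PERK arm and other sensors reach 2.55 at 2 µg, and KDELR3 is the lowest point at -1.41.

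The other sublists held fewer calls. In glycosylation and glycoprotein quality control 8 of 20 tested genes fell and 1 rose at 2 µg, and 2 fell at 4 µg. The share called was 45% at 2 µg, near the 41.6% of all genes, and 10% at 4 µg, below their 22.0%. At 2 µg PRKCSH, the beta subunit of glucosidase II, fell by 0.97 and MAGT1, a subunit of the oligosaccharyltransferase, by 0.72. DPM1, a subunit of dolichol phosphate mannose synthase, rose by 0.51. At 4 µg PRKCSH fell by 0.68, a call lost in 2 of 17 alternatives, and MAGT1 by 0.43, lost in 7 of 17. In vesicle transport 6 of 25 fell and 2 rose at 2 µg, and 3 fell at 4 µg. The shares called there, 32% at 2 µg and 12% at 4 µg, lay below those of all genes. KDELR3, a receptor that returns lumenal proteins from the Golgi, fell by 1.41 at 2 µg (limma adjusted p = 3.91e-05) and by 0.74 at 4 µg (0.00417), under all 17 alternatives at both doses. SEC24C, a coat subunit, fell by 0.58, with -0.22 (adjusted p = 0.179) over the mean of its probes. TMED5 and SAR1B rose by 0.57 and 0.55.

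Among other folding enzymes 3 of 21 fell and 1 rose at 2 µg, with differences of -1.08 for FKBP11, -0.52 for PDIA5 and 0.78 for FKBP14. At 4 µg 2 fell and 1 rose. The 4 µg call was lost for FKBP11 in 4 of 17 alternatives, for PDIA5 in 10 of 17 and for FKBP14 in 5 of 16. The share called among these folding enzymes was 19% at 2 µg and 14.3% at 4 µg, against 41.6% and 22.0% of all genes. In the wider degradation list 2 of 14 rose and 1 fell at 2 µg, and none at 4 µg. UBE2J1, a ubiquitin-conjugating enzyme, rose by 0.79, SELENOS by 0.54, and MAN1B1, a mannosidase, fell by 0.40. In targeting and translocation 2 of 17 rose and 1 fell at 2 µg, and 1 fell at 4 µg. SRPRB, a subunit of the signal recognition particle receptor, differed by 0.61, SRP19 by 0.44 and SRP9 by -0.44 at 2 µg. In the degradation and targeting lists the share called was 21.4% and 17.6% at 2 µg, and 0% and 5.88% at 4 µg. These shares lay below those of all genes. At 2 µg the call was lost without 1 array for PDIA5 (second 2 µg array, 0.0662, or first control array, 0.0825), DPM1 (second control array, 0.0729), TMED5 (second 2 µg array, 0.0523, or second control array, 0.0785) and SAR1B (second 2 µg array, 0.35, adjusted p = 0.154, or second control array, 0.172). It was lost likewise for SRP19 and SRP9 (each without the first 2 µg array or either control array) and MAN1B1 (second 2 µg array or either control array). For MAN1B1 the call was also lost with only the groups compared (limma adjusted p = 0.0544). Leaving out a 4 µg array gave that same fit, because no 4 µg value enters this difference.

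Across the series, the arrays detected 9278 to 10371 probes each, with a median of 40 beads a probe. Of 7 markers of HEK293 cells 6 were detected in control cells and tested, and their summed linear level was 5242 and 4418 at 2 µg, 6028 and 5100 at 4 µg, and 6900 and 8583 in control cells. NEFL (-2.28), ENO2 (-1.27), KRT8 (-1.19) and VIM (-0.56) passed the limma test at 2 µg, and NEFL (-1.85) and KRT8 (-0.60) at 4 µg. NEFL was detected on neither 2 µg array, so its 2 µg difference is measured against background signal. KRT18 (-0.33 at 2 µg and -0.37 at 4 µg) and NEFM (-0.13 and -0.16) passed at neither dose. Of 5 haematopoietic markers 1 was tested, CD68, with PTPRC, CD14 and CD3E not detected, and the summed linear level of the markers was 343 and 465 at 2 µg, 357 and 420 at 4 µg, and 234 and 230 in control cells. Of 6 fibroblast markers 3 were tested, and their sum was 236 and 282 at 2 µg, 336 and 353 at 4 µg, and 484 and 464 in control cells. Of 4 epithelial markers 1 was tested, KRT19, with CDH1 and KRT7 not detected, and the sum was 144 and 160 at 2 µg, 211 and 267 at 4 µg, and 516 and 541 in control cells. Of 4 mature neuronal markers 2 were tested, with RBFOX3 not detected, and the sum was 294 and 322 at 2 µg, 208 and 246 at 4 µg, and 197 and 154 in control cells. SNAP25, one of them, was not detected in control cells and was detected on all 4 transfected arrays. MAP2, the other, was detected in all groups and passed at neither dose. It differed by 0.12 at 2 µg (limma adjusted p = 0.562) and -0.34 at 4 µg (0.135). None of 3 endothelial markers was detected. These sums moved with the groups, and their part in the results above was not tested.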

How the data were processed

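RNA of 6 HEK293T cultures was read on 1 Illumina Human-6 array each. Per the labels, RNA was amplified and labelled with biotin, and per the submitters' processing notes BeadStudio was used, with no version stated. Scanner values, as deposited, are mean bead intensity per probe, not normalized, and a detection p-value per probe was deposited with them, per the file headers. The authors' deposited processed table holds an intensity that, on every array, followed the scanner value linearly and averaged 238.3, which was found by fitting one to the other.

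In R 4.3.3 with limma 3.58.1, neqc corrected the background (offset 16), quantile-normalized and took log2. Probes detected at p under 0.01 on both arrays of a group were kept, 10021 in all, and the brightest kept probe stood for a gene. lmFit and eBayes were fitted to all 6 arrays in 3 groups, with Benjamini-Hochberg adjustment over 8018 genes and two-sided calls at 0.05. Of the probes, 23687 had 1 annotated symbol, 35 several and 24979 none. The fit was run on simulated independent values with some genes changed by known amounts, which checks the code and not the calls made here. Every gene called in a comparison was named with its arrays, as were HSPA5, XBP1, ERN1 and ATF6. From the wider list at most 2 genes per sublist and direction, those of smallest p at 2 µg, were named, besides DDIT3, ATF4, EIF2AK3 and PPP1R15A. The members and lists were chosen with earlier results of these data known. The number of arrays limits the precision. Replicate numbers did not pair the arrays: the correlations of same-numbered deviations were 0.115, -0.093 and -0.041.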

Additional observations from a re-analysis of the deposited data

Results flagged for a closer look

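A pair of probes that entered no comparison of the main fit was detected on a transfected array and on no control array. The search covered this direction only. A probe of DNAJC3 was detected on 1 of 4 transfected arrays, the second 2 µg array, at a log2 level of 6.54, against 6.03 and 6.33 on the control arrays. A probe of SSR2 was detected on 1 of 4 transfected arrays, the second 4 µg array, at 6.41, against 6.05 and 6.3 on the control arrays. The levels of 6.54 and 6.41 lay close to the lowest detected levels of those arrays, 6.46 and 6.31. In the other direction, a probe of DERL3 was detected on 1 control array and on no transfected array, with 6.5 and 6.09 on the control arrays. Groups of 2 arrays are too small to look for an outlying array.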

How the results depend on the processing

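All 305 recomputed differences of called endoplasmic reticulum genes kept their sign over the alternatives, and 256 kept the call. The detection filters, the replicate block, and fits that dropped only the third group or 1 of its arrays left the differences as they were. So did the mean of kept probes for genes with 1 kept probe. In those alternatives only the adjusted p could change, so a kept sign there says nothing about stability. At 2 µg the member count stayed within 1.5 times of 11. At 4 µg it was 11 with quantile normalization without background correction, 4 with the authors' values, 4 with median scaling over all probes, and 1 to 9 with 1 array left out. Between 4 µg and 2 µg it was 1 with quantile normalization without background correction and 1 with a replicate block; the block gave 12 at 2 µg and 7 at 4 µg. The causes were not tested. Over all genes at 4 µg the split of 943 higher and 817 lower became 1216 and 536 with the authors' values, 1601 and 357 under median scaling of all probes, and 771 and 1051 under median scaling of the tested genes. At 2 µg the authors' values gave 1881 higher and 1299 lower, against 1745 and 1590.

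Signs turned only for differences that had not passed. SEC61A1 at 2 µg ranged from -0.43 to 0.04 with 1 array left out, the positive value without the second 2 µg array. MAN1B1 at 4 µg was 0.05 with the authors' values, 0.14 with median scaling over all probes, and -0.14 to 0.02 with 1 array left out, and SRPRB was -0.03 with median scaling over the tested genes. Between 4 µg and 2 µg, median scaling over all probes gave 0.12 for SDF2L1, 0.04 for ATF6, 0.13 for HERPUD1, 0.05 for ATF4 and 0.04 for EIF2AK3, and median scaling over the tested genes gave -0.02 for CRELD2. With 1 array left out, SDF2L1 ranged from -0.21 to 0.18, CRELD2 from -0.10 to 0.12, PDIA6 from -0.21 to 0.30 and HERPUD1 from -0.15 to 0.08. Quantile normalization without background correction moved called values by over 1.5 times. At 2 µg they became -0.30 for PDIA6, -0.35 for SSR2, 0.30 for EIF2AK3, 0.37 for FKBP14, -0.62 for FKBP11, -0.24 for PDIA5 and -0.93 for KDELR3. At 4 µg they became -0.38 for SEC61A1, 0.21 for EIF2AK3, -0.33 for FKBP11, 0.28 for FKBP14 and -0.21 for PDIA5. Median scaling over the tested genes moved ATF4 to 0.36 at 2 µg and 0.24 at 4 µg.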
